A study of Mus musculus with 6 samples.

Results

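Among 9 genes for HMG-box proteins, Sox4 and the lowly expressed Sox12 were called lower in mir181a1/b1 knockout than in wild type thymocytes. This is 22.2% of the group, beside 15.3% of all tested models called lower. The call of Sox12 ended once the ratios were corrected for GC content and length. For Sox4 the listed value was 0 in knockout cells, against 30.1 FPKM (fragments per kilobase of transcript, scaled to the mapped fragments) in wild type cells. A second transcript model listed over the very same span was nearly level, at 36.5 and 34.5 FPKM. Tcf7, the most abundant of the genes, stood at 1718 FPKM in knockout cells and 2580 FPKM in wild type cells with a wide error. Tox was the one gene of the group with a higher value in the knockout on the deposited scale. The difference of Tox did not pass the test. Hmgb1 turned to a higher value after centring or rescaling, and Tox2 after correction for GC content and length.

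The group consists of 9 genes chosen by name: Sox4, Sox12, Tcf7, Lef1, Tox, Tox2, Hmgb1, Hmgb2 and Hmgb3. Each had exactly 1 of the 37867 gene models in the deposited table, and all 9 were tested by the authors. The samples were CD4+CD8+ double-positive thymocytes of strain C57bl6, sorted to a purity of more than 95% per the labels, with 3 populations carrying the mir181a1/b1 knockout and 3 that were wild type. The sources used here give no age, sex or treatment, and nothing in the labels tells whether separate animals were used, so the authors' p-values may measure technical spread only. The table holds 1 pooled FPKM per genotype, so no value of a single population and no SD was used here, and the depth is unknown. The error given with each log2 ratio (knockout over wild type) is the standard error implied by the authors' test statistic. A gene is called changed where q, the p-value adjusted over all tested models, is under 0.05. The genes were proposed with results of this contrast in view, so their levels and calls are a description and not independent evidence.

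The HMG box is a DNA-binding domain that fits the minor groove and bends the helix. Sox, TCF/LEF and TOX proteins carry a single box. Sox and TCF/LEF factors read specific sequences with it, and HMGB proteins carry a pair of boxes and bind chromatin with little sequence preference. TCF-1, the product of Tcf7, and LEF-1 act with beta-catenin or with Groucho/TLE corepressors and are needed for thymocytes to reach and survive the double-positive stage. TOX is needed for the CD4+ lineage and for NKT cells, and SOX4 takes part in early lymphocyte development. MicroRNAs of the miR-181 family are abundant in double-positive thymocytes and lower transcripts whose 3′ UTR pairs with their seed.

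The 2 mature microRNAs of the targeted locus are shown because their seed decides which of the HMG-box transcripts hold a matching site. Both sequences are from RefSeq (GRCm38.p6), 5′ to 3′, with the seed (bases 2 to 8) in capitals, and the 2 seeds are identical.
mmu-miR-181a-5p: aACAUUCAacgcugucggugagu
mmu-miR-181b-5p: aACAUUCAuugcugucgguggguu

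In 1 GENCODE M21 reference transcript per gene (GRCm38), 4 of the 9 genes held a 3′ UTR match to this seed, 6 matches in all, and 5 genes held none. A match was either TGAATGT, which pairs with bases 2 to 8 of the microRNA, or GAATGTA without a T before it, which pairs with bases 2 to 7 and has an A beyond them. Only the transcript strand was searched. None of the 6 was the 8-base match that joins both. Among 9964 tested coding genes 21.6% held at least 1 match of any of these kinds, with a median 3′ UTR of 988 bases against 1872 bases for the HMG-box genes, so the shares are not matched for length. The windows below are 30 bases with the match in capitals.
Tox, chr4:6687961-6687990, minus strand: agtataaaatgTGAATGTttttgtagctaa
Tox, chr4:6686623-6686652, minus strand: gtggttttgtgGAATGTAtgaaataacctt
Hmgb2, chr8:57514328-57514357, plus strand: gcttttgatgtTGAATGTttctaaatattt
Hmgb1, chr5:149046888-149046917, minus strand: gagccataatcTGAATGTtaagtgaaaagc
Hmgb1, chr5:149047791-149047820, minus strand: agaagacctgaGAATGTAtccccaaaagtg
Sox12, chr2:152394056-152394085, minus strand: gccttgtccagTGAATGTcactgctcaaga

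Of the 4 genes with a match, Tox had a log2 ratio of 0.28, and the other 3, Hmgb1, Hmgb2 and Sox12, had negative ratios of -0.06, -0.52 and -1.57, of which that of Hmgb1 turned positive after centring or rescaling. The genes with no match in these transcripts were Sox4, Tcf7, Lef1, Tox2 and Hmgb3, and each was lower in value in the knockout as deposited. After correction for GC content and length over all tested models, Tox stood at 0.16, Hmgb1 at -0.33, Hmgb2 at -0.82 and Sox12 at -0.30. Of the genes without a match, Tox2 turned to 1.27, and Tcf7, Lef1 and Hmgb3 stood at -0.17, -0.32 and -0.20. None of these was called, and Sox4 has no ratio to correct. The expressed isoforms may have other 3′ UTRs, and the 92 bases of the Tox2 reference transcript are short. A match is a description of the sequence and not a measured site.

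As a whole the group had 2 genes called, Sox4 and Sox12, both lower in the knockout, and no gene called higher. In the same comparison 17.1% of the 13834 tested models were called, 15.3% lower and 1.79% higher. The other 7 genes did not pass the threshold. The knockout value was the lower one for 8 of the 9 genes as deposited, and for 59.6% of all tested models. Of the 8, Hmgb1 turned after centring or rescaling, and Tox2 after correction for GC content and length. The median log2 ratio was -0.43 over the 8 genes with a ratio and -0.52 with Sox4 counted as the lowest, and that of all tested models was -0.17. The deposited columns differ in their sums: summed FPKM was 297352 for knockout cells and 360688 for wild type cells, a log2 difference of -0.28. Whether this is a shift of the scale was not tested. Of all called models 89.6% were lower as deposited, 74.9% after centring on the median and 58.3% after both columns were rescaled to an equal sum. Sox12 was called lower on each of these 3 scales. Sox4 has no ratio to shift, so its deposited p was carried over unchanged and says nothing of the scale.

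**Figure D1:**
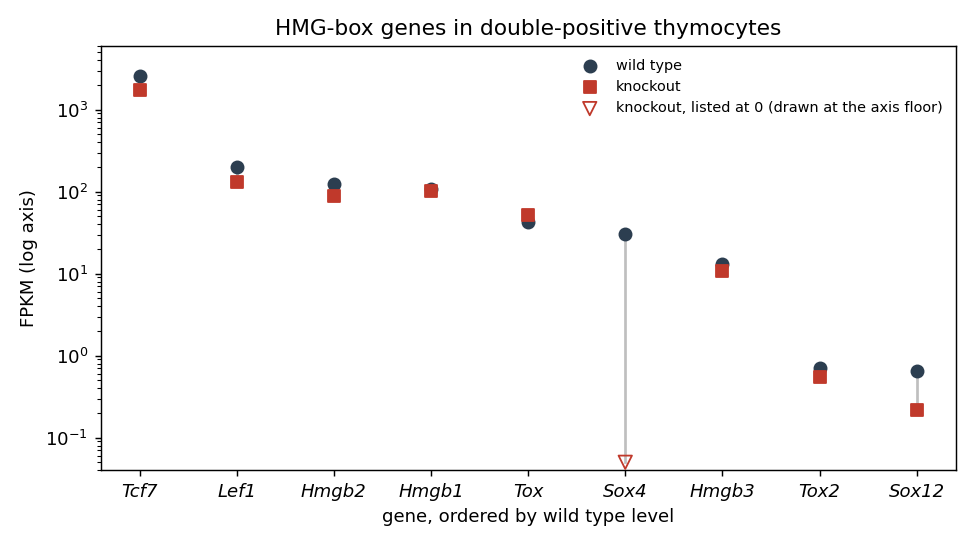
FPKM of the 9 HMG-box genes (log axis), 1 pooled value per genotype with no error available, ordered by wild type level. Wild type circles run from 2580 for Tcf7 to 0.650 for Sox12, and the open triangle marks Sox4, listed at 0 in the knockout and drawn at the axis floor.

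In the wild type the order of levels was Tcf7, Lef1, Hmgb2, Hmgb1, Tox, Sox4, Hmgb3, Tox2 and Sox12. FPKM is a value per length, but these levels were not corrected for GC content, with which the ratios between the genotypes fall. The order is therefore that of the listed values. Without values of single populations it cannot be said which neighbours differ beyond their spread. Tcf7 was the fourth highest of all tested models in the wild type and the fifth highest in the knockout, and it made up 83.2% and 81.7% of the summed FPKM of the 9 genes. In the knockout Hmgb1 stood above Hmgb2, and Sox4 was last by its listed 0, which can be a failed estimate.

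Tcf7 (mm9, chr11:52065786-52096516) encodes TCF-1. Its 2580 FPKM in wild type cells and 1718 FPKM in knockout cells gave a log2 ratio of -0.59 with an implied standard error of 0.67 (the authors' deposited table gives q = 0.658). This error is wide for so abundant a gene: over the 34 tested models with a mean of at least 500 FPKM the median implied standard error was 0.23, and 88.2% of those with one lay below that of Tcf7. A second tested model over the same span, AK202663, stood at 37.2 FPKM in knockout cells and 53.3 FPKM in wild type cells, with an implied standard error of 20.8. The sources used here do not say how the reads of the pair were split.

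Lef1 (mm9, chr3:130813388-130926249) encodes LEF-1, the close relative of TCF-1. It stood at 200 FPKM in wild type cells and 130 FPKM in knockout cells, a log2 ratio of -0.62 with an implied standard error of 0.26. Its unadjusted p was 0.0176 and its q 0.0858 in the authors' deposited table, so it did not pass. The level of Tcf7 was 12.9 times that of Lef1 in the wild type and 13.2 times in the knockout. This ratio of pooled levels was not tested, and the implied standard errors of 0.67 and 0.26 of the log2 ratios of the pair leave room for a shift in either direction. BC051212, the other model of the Lef1 span, stood at 1.84 FPKM in knockout cells and 4.73 FPKM in wild type cells (the authors' deposited table gives q = 0.813).

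Sox4 (mm9, listed as chr13:29037050-29067337) had the highest wild type level of the 32 tested models that were listed at 0 in the knockout. Its p was 2e-06 and its q 5.87e-05 in the authors' deposited table. No fold is given, because a listed 0 can be a failed estimate. The Sox4 model carried the status OK, as all tested models do, and how its 0 arose was not tested. The span of 30288 bases is far longer than the 4795 bases of the reference Sox4 transcript, so it covers more than that transcript. The model linc-Sox4-AS, listed over the identical span, stood at 36.5 FPKM in knockout cells and 34.5 FPKM in wild type cells, a log2 ratio of 0.08 with an implied standard error of 0.25 (the authors' deposited table gives q = 0.906). In the wild type Sox4 held 46.6% of the summed FPKM of the pair, and in the knockout 0%. The sum is of values per length and not of reads.

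Per the labels a TruSeq RNA kit was used, and whether the libraries kept strand information was not tested. Without it, reads from a gene and from a transcript antisense to it cannot be told apart where they overlap. In the GENCODE M21 annotation of GRCm38, Sox4 (chr13:28948919-28953713, minus strand) is overlapped by the lincRNA gene Gm26735 (chr13:28943048-28951671, plus strand). Their exons share 2616 bases, 54.6% of the Sox4 transcript. Coordinates were not converted between builds, so it is not shown that Gm26735 is linc-Sox4-AS. Among the HMG-box genes the next largest such overlap was at Lef1, where 34.7% of the transcript is shared with the antisense gene Gm43352, followed by Tox, where 6.56% is shared with the antisense gene Gm11802. No gene shared exonic bases with the other 6 reference transcripts.

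Listed zeros were seen elsewhere in the table, in both genotypes. Of the 32 tested models at 0 in the knockout, 19 (59.4%) shared their span with another model, and 4 were called. Of the 22 at 0 in the wild type, 20 (90.9%) shared their span, and 4 were called. Over all tested models 46.6% shared their span and 17.1% were called. After Sox4 the highest wild type values among models at 0 in the knockout were those of AK216443 (25.5 FPKM), Uqcr (13.3 FPKM), AK006941 (2.57 FPKM) and AK216578 (1.94 FPKM), for which the authors' deposited table gives q between 0.243 and 0.715. The reverse case was linc-Dcaf7-AS, at 10.2 FPKM in the knockout and listed at 0 in the wild type (the authors' deposited table gives q = 5.21e-05), while Wdr68, listed over the same span, stood at 16.8 FPKM in knockout cells and 25.7 FPKM in wild type cells. The 4 other models at 0 in the wild type with the highest knockout values, AK188772, DQ712794, NR_003681 and AK217047, stood between 9.33 and 13.8 FPKM in the knockout, for which the authors' deposited table gives q between 0.405 and 0.722. Whether the 0 of Sox4 comes from the division of reads between the models of its span was not tested.

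**Figure D2:**
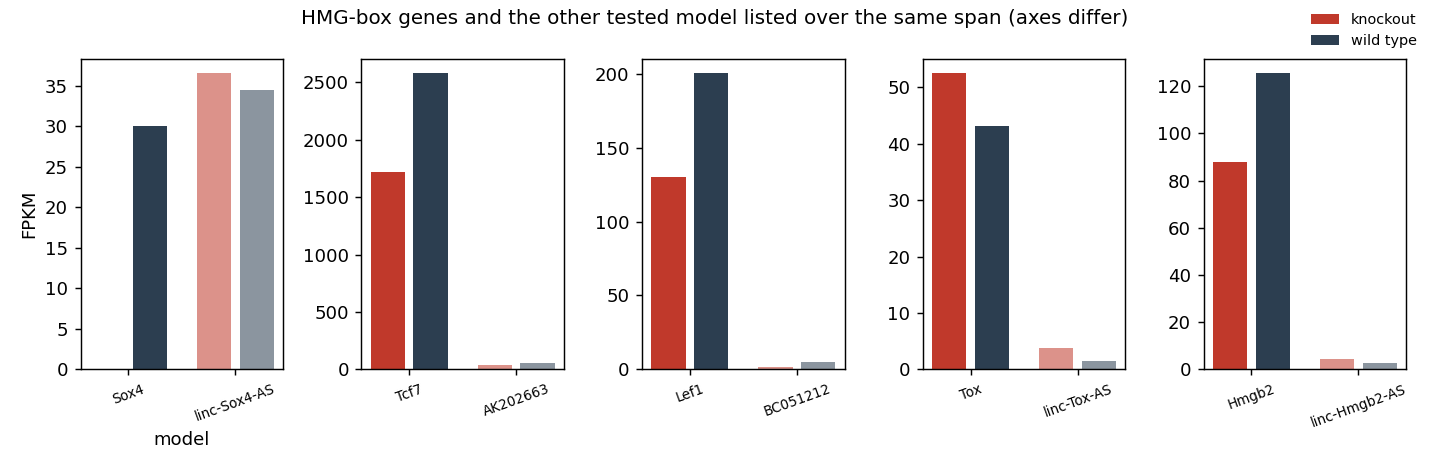
FPKM of 5 HMG-box genes (full colour) and of the other tested model listed over the same span (pale), knockout in red and wild type in dark blue, 1 pooled value each with no error, with a separate linear axis per panel. At Sox4 the companion model lies above the gene in both genotypes, at 36.5 against 0 FPKM (knockout) and 34.5 against 30.1 FPKM (wild type), and at the other 4 genes the companion is far below the gene.

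Sox12 (mm9, chr2:152218147-152233184) encodes a SoxC factor closely related to SOX4. It was low in both genotypes, at 0.650 FPKM in wild type cells and 0.220 FPKM in knockout cells, above 11.6% of tested models in wild type cells. The log2 ratio came to -1.57, with an implied standard error of 0.46 (the authors' deposited table gives q = 0.00751). With 1 FPKM added to both values the log2 ratio was -0.44, and with the GC and length trend of all tested coding models removed it was -0.30 (adjusted p 0.982). Its companion model linc-Sox12-AS was not tested, at 0.00356 FPKM in knockout cells and 0 in wild type cells, so it held almost none of the signal of the span.

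Tox (mm9, chr4:6613086-6918704) stood at 52.5 FPKM in knockout cells and 43.2 FPKM in wild type cells. The log2 ratio of 0.28 with an implied standard error of 0.25 did not pass (the authors' deposited table gives q = 0.539). The companion linc-Tox-AS was also higher in value in the knockout, at 3.71 against 1.56 FPKM (the authors' deposited table gives q = 0.421). As Lef1 was lower and Tox higher in value, Lef1 stood at 4.63 times the level of Tox in the wild type and at 2.48 times in the knockout. Neither gene passed, and this shift between pooled levels was not tested. With the GC and length trend removed the log2 values were closer, at -0.32 for Lef1 and 0.17 for Tox. Tox2 (mm9, chr2:163051189-163148838), a TOX relative described in other lymphocytes, was barely present at 0.553 FPKM in knockout cells and 0.702 FPKM in wild type cells (log2 -0.34, implied standard error 0.51; the authors' deposited table gives q = 0.761).

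The HMGB proteins are abundant chromatin proteins, and HMGB1 and HMGB2 are known to assist the RAG recombinase in cleaving DNA. Hmgb1 (mm9, chr5:149858803-149864613) was almost level, at 102 FPKM in knockout cells and 107 FPKM in wild type cells, a log2 ratio of -0.06 with an implied standard error of 0.25, which turned to 0.11 after centring and to 0.22 after rescaling (the authors' deposited table gives q = 0.94). Hmgb2 (mm9, chr8:59990672-59994983), whose expression is linked to proliferation, stood at 87.8 FPKM in knockout cells and 125 FPKM in wild type cells. The ratio on the log2 scale was -0.52 with an implied standard error of 0.25, with an unadjusted p of 0.0389 and a q of 0.153 as the authors' deposited table lists them. Hmgb3 (mm9, chrX:68809096-68813829) stood at 10.7 FPKM in knockout cells and 13.0 FPKM in wild type cells (log2 -0.29, implied standard error 0.31; the authors' deposited table gives q = 0.62). The companion linc-Hmgb2-AS stood at 4.25 FPKM in knockout cells and 2.89 FPKM in wild type cells (the authors' deposited table gives q = 0.786). HMGB genes have processed copies in the genome whose reads may be shared with them, and the sources used here do not say how such reads were counted.

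**Figure D3:**
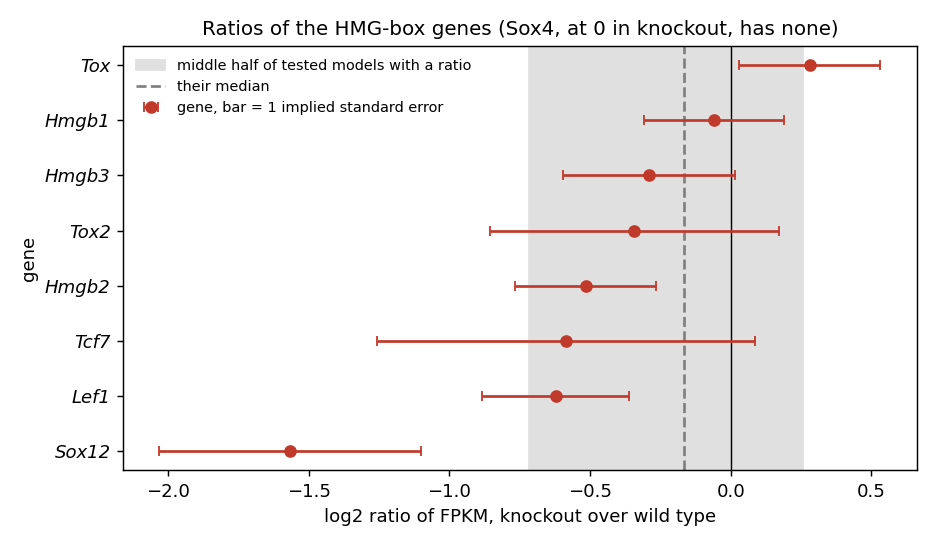
Log2 ratio of FPKM, knockout over wild type, for the 8 HMG-box genes with a ratio, with bars of 1 implied standard error. The grey band covers the central 50% of tested models with a ratio and the dashed line their median of -0.17; Sox12 at -1.57 lies outside the band to the left, and Tox at 0.28 lies just outside it to the right.

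Ratios in this table fall with the GC content of the transcript, so each gene was also set beside coding genes of like composition, in 10 groups of 899 to 901 genes whose mean FPKM is 1 or more. Over those 9001 genes Spearman's rho of ratio and GC content was -0.764, a correlation across genes of 1 table. The HMG-box genes ran from 38.7% GC in Hmgb2 to 61.6% in Tox2, and the 9001 genes from 33.4% to 71.3%. Hmgb2 had the smallest share of its group below it: genes of 33.4% to 42.0% GC had a median log2 ratio of 0.29, and 1.11% of them lay below Hmgb2. Hmgb1, of the same group at 40.1% GC, had 12.0% of the group below it. Sox12 at 59.9% GC lay close to its group, whose median was -1.32 and of which 71.8% were called lower. Lef1 at 51.4% GC was below its group median of -0.29, Tcf7 at 52.3% GC stood near its group median of -0.48, Hmgb3 at 47.3% GC was below a median of -0.01, and Tox at 45.1% GC was above a median of 0.08. Tox2, at -0.34 against a group median of -1.32, lay above 96.3% of its group. In the GC group of Sox4 (51.1% GC) 8.23% of genes were called lower. Sox12 and Tox2 have a mean under 1 FPKM, unlike the genes of these groups.

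With a trend of GC content and length removed by a robust spline fit over those 9001 genes, 6 of the HMG-box genes had a value and none was called (adjusted p under 0.05 in 1.87% of the genes, 0.867% higher and 1.00% lower). Hmgb2 was nearest to the threshold, at a log2 value of -0.81 with an adjusted p of 0.058. The other 5 had adjusted p values from 0.833 to 1, with log2 values of -0.32 for Lef1, -0.32 for Hmgb1, -0.20 for Hmgb3, -0.17 for Tcf7 and 0.17 for Tox. With the trend fitted to all 9952 tested coding models with a ratio, the call of Sox12 was lost, as given above, and Tox2 went from -0.34 to 1.27 (adjusted p 0.243). The source of the trend was not tested, and Sox4 has no ratio to correct.

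**Figure D4:**
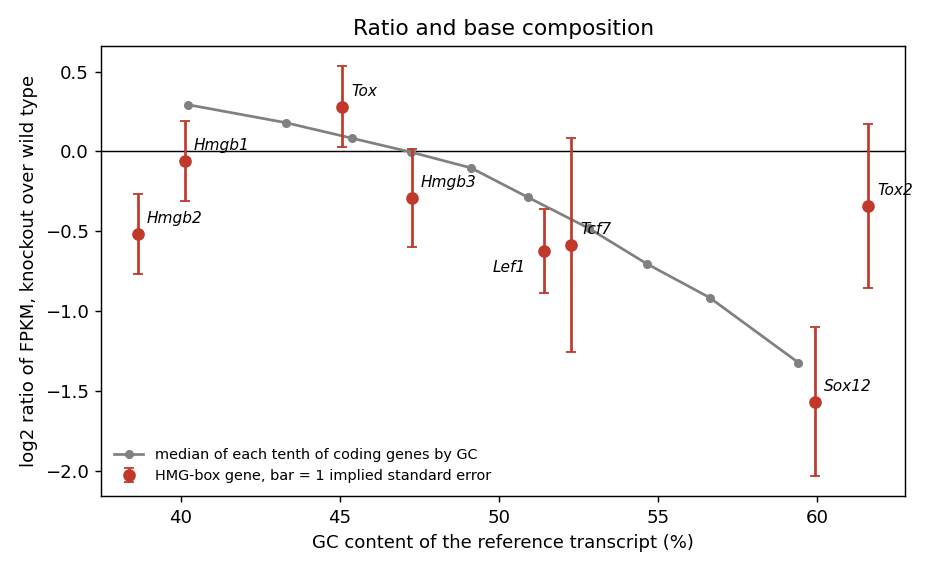
Log2 ratio of FPKM, knockout over wild type, against the GC content of the reference transcript for the 8 HMG-box genes with a ratio (red, bars of 1 implied standard error) and the medians of 10 groups of coding genes (grey). The grey medians fall from 0.29 to -1.32, Sox12 lies near the line, and Hmgb2 at -0.52 lies below it at the low end of GC content.

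Of 36 other listed genes of the HMG-box superfamily, 33 had a model, 16 were tested and 11 were at 0 in both genotypes. Of the tested genes 1 fell (6.25%, beside 15.3% of all tested models), none rose and 15 did not pass, with a median log2 ratio of -0.29 beside -0.17 for all tested models. The one called was Hmg20b, a subunit of a histone demethylase complex, at 13.0 FPKM in knockout cells and 24.6 FPKM in wild type cells (log2 -0.92, implied standard error 0.31; the authors' deposited table gives q = 0.0219), which turned to 0.71 after the trend was removed (adjusted p 0.324). The most abundant were Ssrp1, a subunit of the histone chaperone FACT, at 69.1 against 91.6 FPKM, Pbrm1, a subunit of a chromatin remodeller, at 83.9 against 67.2 FPKM, and Hbp1, a repressor of the cell cycle, at 70.0 against 65.1 FPKM, knockout first. Their q values were 0.297, 0.559 and 0.899 in the authors' deposited table. No Sox gene other than Sox4 and Sox12 was tested, and the highest value of such a gene was 0.219 FPKM, of Sox13 in the wild type. Tox3 stood at 1.19 against 2.10 FPKM and Tox4 at 40.4 against 42.9 FPKM, and neither passed (the authors' deposited table gives q = 0.0858 and 0.899).

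Of 25 listed partners of TCF-1 and LEF-1, 24 were tested, of which 10 fell (41.7%, beside 15.3% of all tested models), none rose and 14 did not pass, with a median log2 ratio of -0.49 beside -0.17 for all tested models. Beta-catenin itself, Ctnnb1, stood at 78.7 FPKM in knockout cells and 107 FPKM in wild type cells and did not pass (the authors' deposited table gives q = 0.19). Its relative Jup, plakoglobin, fell from 47.9 to 14.5 FPKM (log2 -1.72, implied standard error 0.26; the authors' deposited table gives q = 5.05e-09). Aes, a short Groucho family protein, fell from 344 to 136 FPKM (log2 -1.34, implied standard error 0.27; the authors' deposited table gives q = 1.85e-05). The Wnt co-receptor Lrp5 fell to 4.80 from 11.8 FPKM and Cby1, an inhibitor of beta-catenin, to 10.9 from 27.6 FPKM (the authors' deposited table gives q = 9.25e-05 and 0.000169). Tle6, Bcl9l, Gsk3a, Tle2, Bcl9 and Tle3 made up the rest of those that fell and are named after their values were seen. Tle1 and Tle4, the other Groucho corepressors of the list, stood at 3.54 against 3.93 FPKM and at 5.49 against 5.35 FPKM and did not pass (the authors' deposited table gives q = 0.907 and 0.977). Csnk1a1, a kinase of the beta-catenin destruction complex, stood at 128 against 119 FPKM and the coactivator Crebbp at 41.5 against 35.8 FPKM (the authors' deposited table gives q = 0.861 and 0.683). The median GC content was 58.7% for the partners that fell and 50.7% for those that did not pass. After removal of the trend none of the 10 was called, and Pygo2, a coactivator of beta-catenin, was called higher at 1.05 (adjusted p 0.0172), from 12.0 against 12.3 FPKM as deposited.

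Genes known to respond to TCF-1, LEF-1 or Wnt signals had 6 of 18 tested members lower (33.3%, beside 15.3% of all tested models), none higher and 12 that did not pass, with a median log2 ratio of -0.41 beside -0.17 for all tested models. Id3, an inhibitor of E proteins, fell from 40.5 to 6.57 FPKM (log2 -2.62, implied standard error 0.36; the authors' deposited table gives q = 9.46e-11) and was the one member still called after the trend was removed, at -1.67 (adjusted p 0.000774). The growth regulator Myc fell to 4.91 from 13.1 FPKM (the authors' deposited table gives q = 0.00158), and after removal of the trend it stood at -0.18 (adjusted p 1). The survival gene Bcl2l1, which TCF-1 is known to sustain in double-positive cells, fell to 62.7 from 118 FPKM (log2 -0.91). Ptcra, which encodes the alpha chain of the pre-TCR, fell to 9.59 from 26.1 FPKM (log2 -1.45). Nkd1 and Cd3d, named after their values were seen, fell as well, and the authors' deposited table gives q from 2.89e-05 to 0.0452 for these 4 genes. Axin2, the usual readout of beta-catenin activity, stood at 4.52 against 6.23 FPKM and did not pass (the authors' deposited table gives q = 0.419). The most abundant members that did not pass were Cd4 at 907 against 732 FPKM, Cd3g at 542 against 642 FPKM and Tcf12, an E protein gene, at 283 against 251 FPKM (the authors' deposited table gives q from 0.423 to 0.764). The median GC content was 55.8% for the members that fell and 49.9% for those that did not pass.

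**Figure D5:**
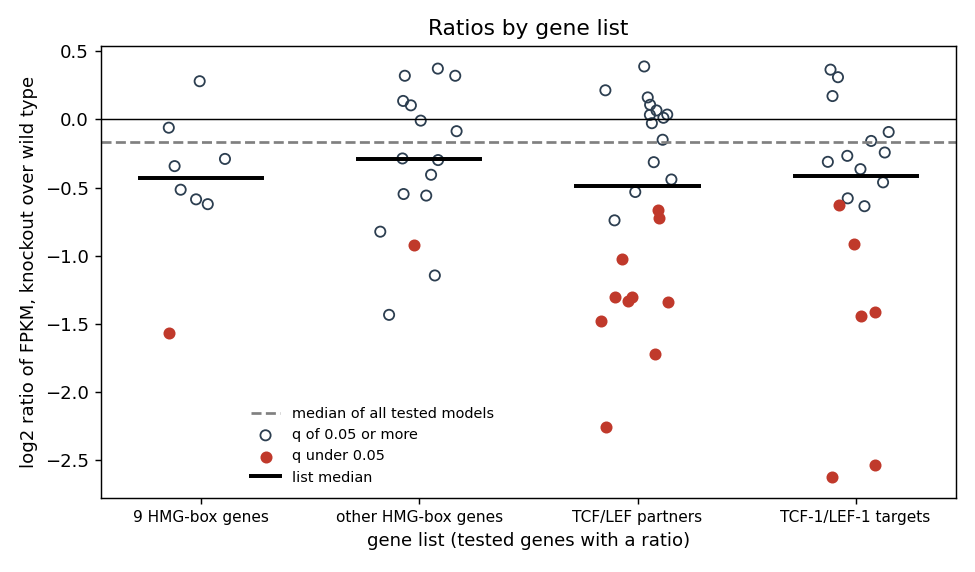
Log2 ratio of FPKM, knockout over wild type, of the tested genes with a ratio in the 4 gene lists; filled red points have a q under 0.05, black bars are list medians and the dashed line is the median of all tested models, -0.17. The list medians are -0.43, -0.29, -0.49 and -0.41 from left to right, and no red point lies above 0.

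The sorted cells carried the markers of their label. The coreceptor genes Cd4 and Cd8b1, which together define the double-positive stage, stood at 907 and 1241 FPKM in knockout cells and at 732 and 1683 FPKM in wild type cells, and neither was called. Of 5 double-negative markers Il2ra rose, to 29.4 from 2.89 FPKM, and made up most of the summed level of 34.7 against 7.40 FPKM. Cd44 (3.81 against 2.96 FPKM), Il7r (1.03 against 0.803 FPKM) and Kit (0.370 against 0.672 FPKM) did not pass, and Hes1 was not tested. The summed levels in the knockout and the wild type were 0.242 and 0.336 FPKM for 4 B cell markers, 0.0562 and 0.0931 FPKM for 3 NK markers, 2.81 and 4.93 FPKM for 4 myeloid markers, 1.01 and 1.77 FPKM for the erythroid marker Hbb-b1 over its 2 models, and 0.951 and 2.35 FPKM for 4 markers of thymic epithelium. Of these, Itgam and Epcam fell (the authors' deposited table gives q = 0.0413 and 0.00844), Foxn1 was listed at 0 in the knockout and Ncr1 in the wild type. The part of other cells in the HMG-box values was not tested, and fewer cells of a type and less RNA per cell cannot be told apart in such samples.

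Genes with levels most like those of 4 HMG-box genes were found by the distance of log2(FPKM + 1) over the 2 genotypes, a likeness of 2 values only. Nearest to Tcf7 were a model of the T cell receptor alpha locus (1861 FPKM in knockout cells and 2030 FPKM in wild type cells), linc-Vmn1r39 and the coreceptor gene Cd8b1 (1241 and 1683 FPKM). These lay at distances of 0.364 to 0.774, so Tcf7 had no neighbour as close as those named for the other genes. Nearest to Lef1, at distances of 0.035 to 0.103, were linc-Osbpl8-2, the ribosomal protein gene Rpl7 (128 and 187 FPKM) and Smarcd2, a subunit of a chromatin remodeller. Nearest to Tox were Cdv3, Usp1 and Nsd1, at distances of 0.007 to 0.023, and nearest to Hmgb1 were Khdrbs1, Arl6ip2 and Smc1a, at 0.037 to 0.047.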

How the data were processed

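RNA of 3 knockout and 3 wild type populations was sequenced after TruSeq library preparation, per the labels' protocols. The submitters' processing notes name TopHat2 and mm9, without versions. The sources used here do not give the quantification tool or annotation. The authors deposited 1 FPKM value per genotype. The test score, p-value and q-value of each model are also the authors', per the file headers. The q-values equalled p-values adjusted by Benjamini-Hochberg across 13834 tested models within 1.89e-06.

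Values are pooled, so no test over libraries was made. Log2 ratios were computed from FPKM with no pseudocount and divided by the deposited score to give the implied standard error. GC content, length and 3′ UTR came from 1 GENCODE M21 transcript per gene, left out where longer than 1.2 times the model's span. The trend was a robust regression on splines of GC content and length with 7 degrees of freedom each (statsmodels 0.14.6). It was tried on data simulated from this same fitted trend with normal noise. Such a trial cannot show whether the form of the trend suits the real data.

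The text names, by rule, the 9 genes, up to 4 called genes per direction and 3 uncalled ones of highest level per list, 5 models at 0 per genotype and 3 nearest genes. Axin2, Pygo2, Sox13, Tle1, Tle4, Tox3, Tox4 and the marker genes fall outside it and were named after their values were seen. The genes and lists were chosen with earlier results of these data known. Some marker genes are not reported here.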

Additional observations from a re-analysis of the deposited data

How the results depend on the processing

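No paired analysis was possible because the table holds 1 pooled value per genotype, and for the same reason no replicate could be left out. Of the HMG-box genes, 1 was called lower among models with a mean of at least 1 FPKM, since Sox12 is below that mean, and 0 after removal of either GC and length trend. Neither Sox4 nor Sox12 has a value in the trend fitted to genes averaging 1 FPKM or more, so the 0 there follows from its construction, and Sox4 has none in the trend of all tested models. Sox4 has no ratio under any setting without a pseudocount, and with one the pseudocount sets the value, so none is given. The log2 ratio of Hmgb1 turned to 0.11 when centred and to 0.22 when both genotypes were rescaled to the same sum (a setting added after the data were seen), and that of Tox2 to 1.27 after removal of the trend fitted to all tested models (also added). Other HMG-box genes had 1 called lower as deposited, 2 at a q under 0.1, and 0 at a q under 0.01, when centred, when rescaled and after removal of either trend, and their median turned from -0.29 to 0.0053 with the trend removed. TCF/LEF partners called lower went from 10 to 0 and those called higher from 0 to 1 after removal of either trend. Target genes called lower went from 6 to 3 when rescaled and to 1 after removal of either trend. Over all tested models the number called lower went from 2120 to 1196 when rescaled. Over the 9001 genes of the first trend it went from 1742 to 90 after removal of that trend. Whether the lists changed more than the whole was not tested. The causes of the other changes were not tested. The median of the partners was -0.21 when rescaled and -0.06 with the trend removed. Summing all models of a symbol gives no test and left the list medians as they were. Pooled values and unknown depth limit what can be said of the low genes Sox12 and Tox2.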

Other observations

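The table also lists 14 long noncoding models named after HMG-box genes, which follow the gene in name and not in any shown function. Of these, 4 were tested and none was called by the authors' deposited q-values, beside 17.1% of all tested models. So few models cannot show a departure from that share. The model linc-Lef1-1 (mm9, chr3:130631965-130633597), outside the Lef1 span, stood at 0.317 FPKM in knockout cells and 1.64 FPKM in wild type cells, a log2 ratio of -2.37 (the authors' deposited table gives q = 0.0914). The other 3 tested were linc-Sox4-AS, linc-Tox-AS and linc-Hmgb2-AS, each with a higher value in the knockout. The 10 that were not tested reached at most 0.114 FPKM.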
